A study of Mus musculus with 12 samples.

Results

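The genes described here are 10 genes of the Notch pathway, namely the receptors Notch1, Notch2 and Notch3, the ligands Jag1, Jag2 and Dll1, the DNA-binding protein Rbpj, and the target genes Hes1, Hey1 and Heyl. They were chosen by name and looked up by gene symbol in a pair of deposited tables of RNA-seq values from mouse hair follicle stem cells (HFSCs), and all 10 were found in both. One table holds 17885 genes, with 3 libraries labelled control and 3 labelled Eed iKO, and the other holds 21915 genes, with 3 anagen and 3 telogen libraries, so that 12 libraries were used in all. Anagen is the growth phase of the hair cycle and telogen is the resting phase.

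All mice were labelled C57BL/6J, and in every group HFSCs were sorted from back skin by 4 surface markers, with CD34+, EpCAM+ and α6-integrin high cells kept and Sca1+ cells left out. The Eed iKO mice carried K15-CrePGR, a Cre recombinase driven by a Krt15 promoter and activated by the hormone analog RU-486, with Eed fl/fl, the floxed alleles of a core subunit of Polycomb repressive complex 2 (PRC2). They received 100 µl of RU-486 at 10 mg/ml on the skin daily for 7 days from postnatal day 50 and were sampled at postnatal day 70, where the label gives their genotype as Eed -/-. The control libraries were labelled wildtype and also came from postnatal day 70, and by the methods control mice received the ethanol vehicle alone, so that genotype and RU-486 cannot be told apart. The anagen libraries came from wildtype mice at postnatal days 28 to 30 and the telogen libraries from wildtype mice at postnatal days 50 to 52, so that hair cycle stage and age cannot be told apart. The study describes the Eed iKO and control libraries as biological replicates of more than 1 litter, although the labels tie no library to an animal. For anagen and telogen it names several animals but does not say how they were divided over the libraries, so each p-value there measures the spread between these libraries, which may be in part technical.

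Notch receptors are activated by Jagged or Delta-like ligands on neighbouring cells. After binding, proteases and the gamma-secretase complex release the intracellular domain of the receptor, which enters the nucleus, joins Rbpj and Mastermind-like coactivators, and switches on genes such as those of the Hes and Hey families of transcriptional repressors. In skin the pathway is known for its part in commitment to suprabasal differentiation and in the upkeep of the hair follicle.

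The libraries were checked before the genes of the pathway were compared. Cd34 and Krt15, which mark the bulge, were detected in every library. Levels are normalized counts, the reads of a gene scaled for the depth of each library. In the Eed iKO table the scale was a single size factor per library, while none was recovered from the hair cycle table. Cd34 was between 31530 and 47500 normalized counts in the Eed iKO table. In the hair cycle table it was between 2955 and 4144 in anagen and between 6433 and 9159 in telogen, without overlap. Eed itself was at 933, 1361 and 1001 normalized counts in the 3 libraries labelled Eed iKO and at 1084, 1249 and 950 in the controls, a log2 difference of -0.01 ± 0.216 (SE), with an adjusted p of 0.993. The gene total therefore did not separate the labelled genotypes, and it does not show whether the floxed exons were read. By RT-qPCR the study reported lower Eed mRNA in sorted Eed iKO HFSCs. By immunofluorescence it reported loss of H3K27me3, the histone mark set by PRC2. One telogen library stood apart, since the summed level of 11 bulge and basal markers was 236658 in telogen replicate 1 against 531766 and 626942 in the other telogen libraries and 551673 to 664059 in anagen. Most of this sum was Krt15 and Krt5, and Itga6, Sox9, Tcf7l1 and Krt14 were also lowest in telogen replicate 1. Lhx2 and Epcam of the same list were instead highest there, at 11220 and 1864. The 2 tables were normalized separately, so no level is compared across them. In such bulk samples, fewer cells of a type and less RNA per cell cannot be told apart.

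To order the 10 genes by level, normalized counts were divided by the length of the longest coding transcript in kilobases. In the control libraries Jag2 had the highest level, 2735 ± 399 normalized counts per kilobase (SD, n = 3), followed by Rbpj at 2194 ± 281 and Jag1 at 1791 ± 196. Neither Jag2 and Rbpj nor Rbpj and Jag1 were separated, since their ranges over the libraries overlapped. Notch1 came next at 1335 ± 162 per kilobase, below every Jag1 value, and Hes1 at 875 ± 233 and Notch2 at 789 ± 28.5 overlapped each other. Dll1, Hey1 and Notch3 were lower still, at 207 ± 40.6, 117 ± 52 and 54.9 ± 5.6 per kilobase, and Hey1 and Notch3 overlapped. The order was the same in the libraries labelled Eed iKO, from Jag2 at 3106 ± 4.99 to Notch3 at 43.6 ± 14.8 per kilobase. The receptor with the highest level was therefore Notch1, and both Jagged ligands lay far above Dll1, at P70 in both groups. The place of Notch1 depended on the length used, since with the median coding transcript length its level was 2533 per kilobase in control and it ranked 2 of 10.

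In the hair cycle table Rbpj had the highest mean in both stages, with 410 ± 99.3 normalized counts per kilobase in anagen, where its range overlapped that of Jag1, and 554 ± 270 in telogen. Jag1 was at 355 ± 22.2 and 302 ± 8.73 per kilobase and Jag2 at 225 ± 45.2 and 217 ± 96.8. The target genes stood at different places in the 2 orders. Hey1 ranked 4 of 10 in anagen, at 105 ± 15.3 per kilobase, and 7 of 10 in telogen, at 29.3 ± 23, where it overlapped both Dll1 above it and Hes1 below it. With the median coding transcript length Hey1 ranked 5 of 10 in anagen, and Notch1, which ranked 7 there, ranked 4. Notch3 was the receptor with the lowest level in both stages, at 6.88 ± 2.26 and 4.33 ± 0.926 per kilobase, and Heyl had the lowest level of the 10 genes in every group.

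**Figure D1:**
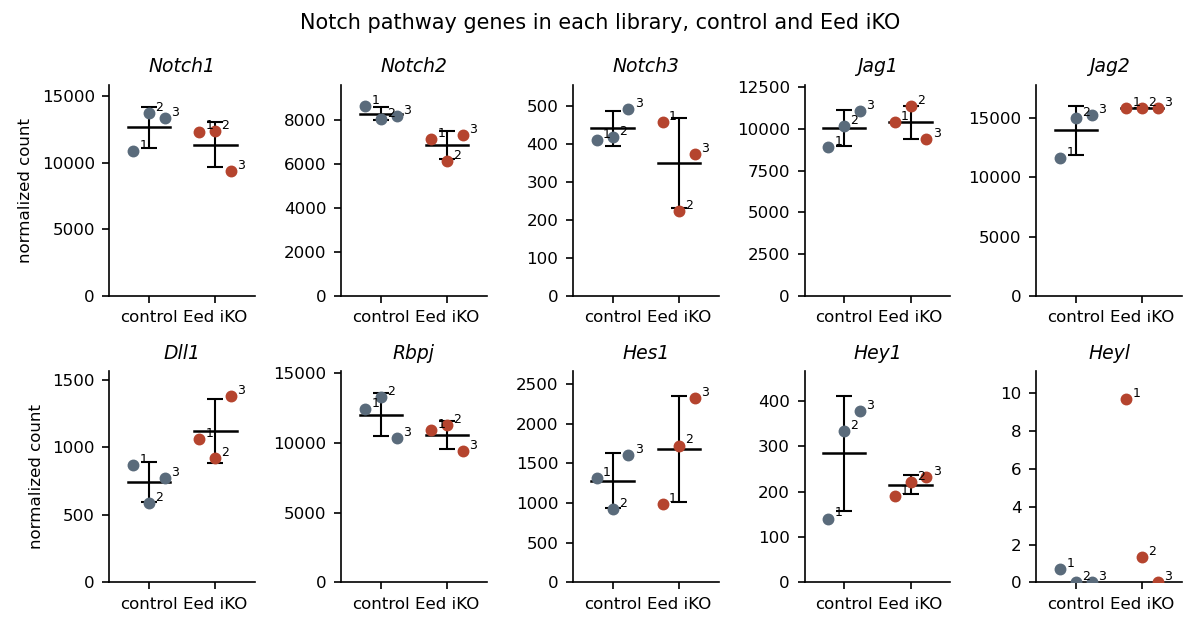
Normalized counts (y axis, starting at 0) of the 10 genes in the control and Eed iKO libraries. Each point is 1 library with its replicate number, and the bars give the mean and SD of 3 libraries, left out for Heyl. For Dll1 and Jag2 every Eed iKO point lies above every control point, and for Notch2 every one lies below.

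The first comparison asks whether the pathway differed in HFSCs of Eed iKO mice. No gene of the 10 passed the test between the libraries labelled Eed iKO and control. The ligand Dll1 had the largest difference, 1.51-fold higher in Eed iKO on the log2(normalized count + 1) scale, but it did not pass after adjustment over all genes. Heyl was too low to be tested. Of the other 9 genes, 0 had an adjusted p under 0.05 by limma with Benjamini-Hochberg adjustment, and 0 by DESeq2 or by the quasi-likelihood test of edgeR on recovered reads. Over all 15008 genes tested, the share with an adjusted p under 0.05 was 0.0267% by limma, 4.48% by DESeq2 and 0.0333% by edgeR. Dll1 was the 1 gene of the 9 with an unadjusted p under 0.05, against 14.7% of all genes. The thresholds of the methods are a log2 difference over 1.5 with a p-value under 0.05, taken here as unadjusted. By these, 0 of the 9 were called, against 1.75% of all genes. A figure legend of the study gives another rule, an absolute fold change of at least 1.5 with an adjusted p under 0.05. By that rule 0 of the 9 were called too, since 0 had an adjusted p under 0.05.

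The receptors stand at the start of the pathway. Notch1, the receptor with the most reads here, was at 10907, 13742 and 13344 normalized counts in control and at 12350, 12361 and 9411 in Eed iKO. The groups overlapped, with a log2 difference of -0.16 (95% interval -0.51 to 0.19) and an adjusted p of 0.683. Notch2 was at 8627, 8060 and 8176 in control and at 7137, 6151 and 7343 in Eed iKO. All 3 Eed iKO libraries lay below all 3 controls, and the log2 difference was -0.27 ± 0.131 (SE), with an interval of -0.56 to 0.02 and an adjusted p of 0.365. Notch3 had far fewer reads, 410, 418 and 491 in control against 456, 222 and 372 in Eed iKO, and its log2 difference of -0.39 had an interval from -1.11 to 0.34 (adjusted p = 0.623) and was -0.09 without Eed iKO replicate 2 and -0.61 without Eed iKO replicate 1. All 3 receptors thus had a difference below 0, and none passed the test.

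The ligands had differences above 0. Dll1, a Delta-like ligand, was at 871, 585 and 771 normalized counts in control and at 1062, 923 and 1382 in Eed iKO, so that the groups did not overlap. Its log2 difference was 0.59 ± 0.239 (SE), with an interval of 0.07 to 1.12, an unadjusted p of 0.031 and an adjusted p of 0.284 by limma, 0.174 by DESeq2 and 0.296 by edgeR. With each library left out in turn the log2 difference of Dll1 ran from 0.43 to 0.73, and its adjusted p from 0.237 to 0.567.

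Jag2 was at 15890, 15842 and 15852 in Eed iKO, a narrow range that lay above the controls at 11617, 15013 and 15263. Its log2 difference of 0.19 (interval -0.12 to 0.51) did not pass the test (adjusted p = 0.552), and without control replicate 1 it was 0.07. Jag1, the other Jagged ligand, was at 8898, 10164 and 11088 in control and at 10427, 11366 and 9383 in Eed iKO. These values overlapped, and the log2 difference was 0.05 (interval -0.26 to 0.36, adjusted p = 0.903), with its sign turned to -0.04 without control replicate 1 and to -0.02 without Eed iKO replicate 2.

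Rbpj, the DNA-binding partner of every Notch receptor, was at 12458, 13326 and 10326 normalized counts in control and at 10948, 11287 and 9416 in Eed iKO. The groups overlapped, and the log2 difference was -0.19 (interval -0.51 to 0.13, adjusted p = 0.587).

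The target genes are commonly read as an output of the pathway. Hes1 was at 1319, 925 and 1608 in control and at 988, 1725 and 2328 in Eed iKO. The log2 difference of 0.34 had an interval of -0.35 to 1.02 (adjusted p = 0.654), and without Eed iKO replicate 3 it was 0.06. Hey1 was at 141, 335 and 377 in control and at 191, 222 and 233 in Eed iKO, all of the latter inside the range of the controls. Its log2 difference was -0.28, with an interval from -1.21 to 0.65 (adjusted p = 0.804). It was -0.72 without control replicate 1 and -0.02 without control replicate 3. Heyl was near the limit of detection, with 1, 0 and 0 reads in control and 9, 1 and 0 in Eed iKO, where 3 reads, the upper limit that a count of 0 allows, correspond to 2.08 to 3.98 normalized counts. It did not pass the filter, and no difference was detectable at this depth. The limit covers counting error only.

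Of the 9 genes tested, 3 had groups that did not overlap, namely Dll1 and Jag2 above and Notch2 below, where 20.2% of all genes tested did so. The median log2 difference of the 9 was -0.16, against -0.001 over all genes tested, and the median size of the difference regardless of sign was 0.273 against 0.302.

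Marker sums were set beside these values. The summed level of 8 proliferation markers was 10830 and 10520 in Eed iKO replicates 1 and 2 but 1113 in replicate 3, against 1511 to 3950 in control. Eed iKO replicate 3 also had the highest sum of 8 suprabasal markers, 94656 against 36681 and 24777 in the other Eed iKO libraries and 26655 to 68646 in control. Krt10, Sbsn, Krtdap and Dsg1a of this list were highest there, while Krt1, Ivl, Lor and Flg were each highest in a control library. Dll1 and Hes1 both had their highest value in Eed iKO replicate 3. The sum of hair germ and matrix markers, most of it Cdh3, was 14825 to 15887 in Eed iKO and 10418 to 14811 in control. These ranges only just missed overlap. Cdh3 was at 10780 to 12070 against 6658 to 10100, while the groups overlapped for every other marker of this list in the table. The basal keratin Krt14 was at 118200 to 141700 against 62890 to 87610, without overlap. Krt15, Itga6 and Lhx2 of the bulge and basal markers were also higher in every Eed iKO library than in any control. Nfatc1, Tcf7l1 and Lgr5 of the same markers were instead lower in every Eed iKO library. Nfatc1 was at 21660 to 28800 against 30710 to 34580 in control, and Lgr5 at 28070 to 31210 against 32370 to 38630. The summed level of 10 immune and Langerhans cell markers was 437 to 1028 in Eed iKO and 249 to 534 in control. Cd207, a Langerhans cell marker, was at 0 in all 3 controls and at 13.3 to 23.7 normalized counts in Eed iKO. H2-Ab1 and Tyrobp of this list were also higher in every Eed iKO library than in any control. Its other markers did not separate the groups. The part of any of these cell types in the values was not tested. Notch genes are also used in endothelial cells. Endothelial markers, 6 of 8 in the table, summed to 367 to 751 in Eed iKO and 495 to 695 in control. Kdr, Tek and Esam were highest in Eed iKO replicate 3, at 73.2, 45.5 and 18.8. Pecam1, Tie1 and Emcn were each highest in a control library. Dll1 shared 17.9% of the 31-base words of its transcripts with A930024N18Rik, an RNA from the other strand that overlaps 20.5% of its exon bases, and without strand information their reads cannot be told apart.

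**Figure D2:**
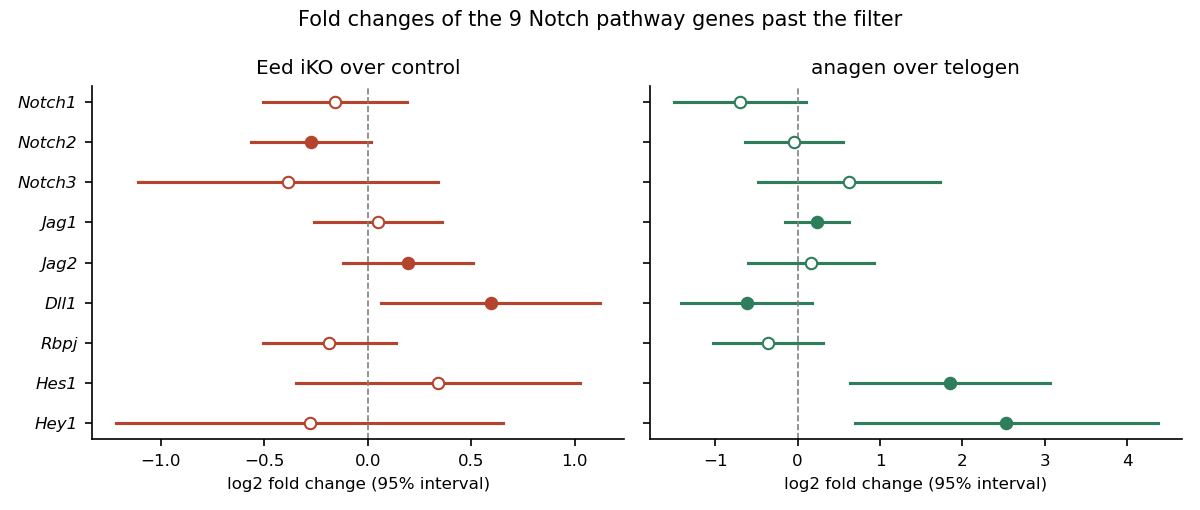
Log2 fold changes (x axes) of the 9 genes past the filter, Eed iKO over control (left) and anagen over telogen (right), with 95% intervals from limma. Filled points are genes whose groups of libraries did not overlap, 3 on the left and 4 on the right. The intervals of Dll1 on the left and of Hes1 and Hey1 on the right do not reach 0, yet none of these genes passed the adjustment over all genes.

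The second comparison asks whether the pathway differed between growing and resting stages. The target genes Hes1 and Hey1 were higher in every anagen library than in any telogen library, 3.61-fold and 5.8-fold on the log2(normalized count + 1) scale, but neither passed the adjustment over all genes. Of the 9 genes tested, 0 had an adjusted p under 0.05 by limma, where 1556 of all 13457 genes, or 11.6%, did. Hes1 and Hey1 had an unadjusted p under 0.05, so that 2 of 9 did so against 27.3% of all genes. With a log2 difference over 2 as well, as in the methods, 1 of 9 was called, Hey1, against 5.1% of all genes. The count tools could not be used here, since whole reads were not recovered from this table.

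Hes1, a repressor known to respond to Notch, was at 110, 79.3 and 85.6 normalized counts in anagen. In telogen it was at 35.5, 35.5 and 11.4, so that the lowest anagen library was above the highest telogen library. The log2 difference was 1.85 ± 0.552 (SE), with an interval of 0.64 to 3.06 and an adjusted p of 0.0528, just over the threshold. With each library left out in turn the log2 difference ran from 1.33 to 2.11. The adjusted p was 0.0435 without telogen replicate 1 and 0.047 without telogen replicate 2, and between 0.107 and 0.2 when any 1 of the other libraries was left out. The call of Hes1 thus turned on which library was included, while its direction did not.

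Hey1, a repressor related to Hes1, was at 211, 271 and 278 normalized counts in anagen and at 101, 6.61 and 105 in telogen. Telogen replicate 2 lay far below the other telogen libraries and widened the error. The log2 difference was 2.54 ± 0.836 (SE), with an interval of 0.70 to 4.37 and an adjusted p of 0.0758. Without telogen replicate 2 it was smaller and more precise, 1.28 with an interval of 0.53 to 2.02 and an adjusted p of 0.038. Without telogen replicate 1 it was 3.15 (adjusted p = 0.0391), without telogen replicate 3 it was 3.18 (adjusted p = 0.0524), and without an anagen library the adjusted p was between 0.168 and 0.183.

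Heyl, the third target gene, was at 30.7 and 0.893 normalized counts in anagen replicates 1 and 2 and listed at 0 in the other 4 libraries. It did not pass the filter.

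**Figure D3:**
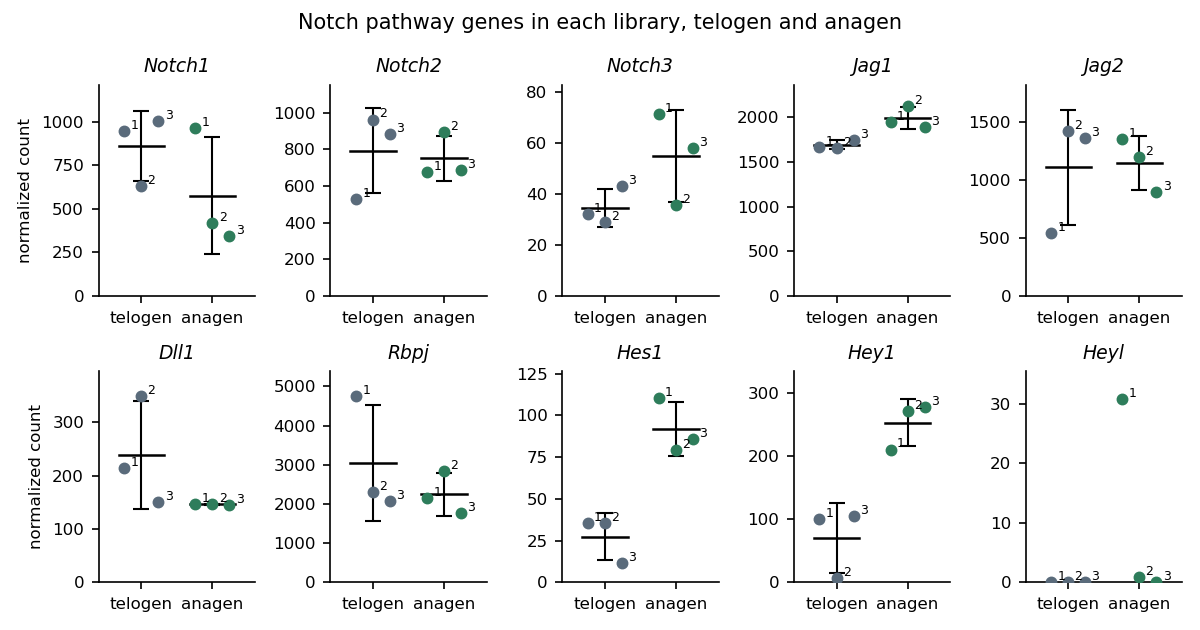
Normalized counts (y axis, starting at 0) of the 10 genes in the telogen and anagen libraries. Each point is 1 library with its replicate number, and the bars give the mean and SD of 3 libraries, left out for Heyl. The anagen points of Hes1 and Hey1 lie above all telogen points, and telogen replicate 1 is apart from the others for Jag2 and Rbpj.

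The ligands had differences in both directions between the stages. Jag1 was at 1951, 2130 and 1890 in anagen and at 1672, 1658 and 1749 in telogen, without overlap. The difference was small, 0.23 on the log2 scale with an interval of -0.16 to 0.62, and did not pass the test (adjusted p = 0.428). Dll1 was at 146, 147 and 146 in anagen and at 215, 349 and 151 in telogen. All anagen libraries were below all telogen libraries, though telogen replicate 3 lay only just above them, and the log2 difference was -0.62 ± 0.362 (SE), with an interval of -1.41 to 0.18 and an adjusted p of 0.299. Without telogen replicate 2 the log2 difference of Dll1 was -0.30.

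Jag2 was at 1349, 1197 and 895 in anagen and at 538, 1422 and 1363 in telogen. The low telogen value was that of replicate 1, the library with the low bulge and basal marker sum, and the sign of the difference rested on it. The log2 difference was 0.16 (interval -0.61 to 0.92, adjusted p = 0.807) with all libraries and -0.30 without telogen replicate 1.

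Rbpj showed the opposite pattern in the same library. It was at 4742 normalized counts in telogen replicate 1, against 2308 and 2067 in the other telogen libraries and 2145, 2839 and 1765 in anagen. The log2 difference was -0.36 (interval -1.03 to 0.31, adjusted p = 0.484), and without telogen replicate 1 it was 0.015. Of the 31-base words of Rbpj transcripts, 11.8% were shared with other genes, mostly the pseudogene Rbpj-ps3, so that its reads may be split between copies.

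Among the receptors, Notch1 was at 965, 419 and 346 in anagen and at 948, 633 and 1007 in telogen. Anagen replicate 1 was as high as the telogen libraries, and the log2 difference was -0.70 ± 0.364 (SE), with an interval of -1.50 to 0.10 and an adjusted p of 0.239. Without anagen replicate 1 it was -1.15, with an adjusted p of 0.067, and without anagen replicate 3 it was -0.41. Notch2 was at 674, 894 and 686 in anagen and at 528, 963 and 886 in telogen, with a log2 difference of -0.04 (interval -0.63 to 0.55, adjusted p = 0.936) whose sign turned when any 1 of 4 of the libraries was left out. Notch3 was at 71.6, 35.8 and 58.1 in anagen and at 32.1, 28.9 and 43.1 in telogen, with a log2 difference of 0.62 (interval -0.48 to 1.72, adjusted p = 0.461). None of the 3 receptors separated the stages.

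Of the 9 genes tested, 4 had groups that did not overlap, namely Jag1, Hes1 and Hey1 above and Dll1 below in anagen, where 33.3% of all genes tested did so. The median log2 difference of the 9 was 0.157, against 0.0127 over all genes tested, and the median size of the difference regardless of sign was 0.616 against 0.492.

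**Figure D4:**
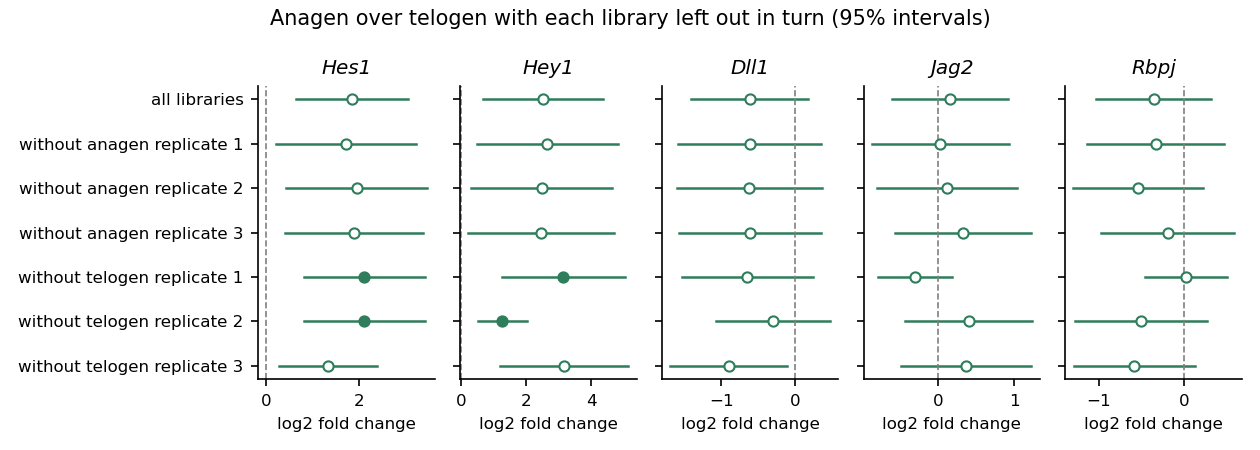
Log2 fold changes of anagen over telogen (x axes) with 95% intervals, for all 6 libraries and with each library left out in turn (rows). Filled points have an adjusted p under 0.05. Hes1 and Hey1 are filled in 2 rows each, without telogen replicate 1 or 2, and Jag2 and Rbpj change sign without telogen replicate 1.

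The sorted populations of the 2 stages also differed in other markers. Cd34, a marker used in the sort, was lower in every anagen library than in any telogen library. Itga6, the gene of the sort marker α6-integrin, was instead higher in every anagen library, at 10530 to 11650 against 4177 to 6856. Epcam, also a sort marker, overlapped between the stages. The proliferation marker sum was 17415 to 29102 in anagen and 673 to 840 in telogen, with Mki67 between 10400 and 14950 in anagen and between 276 and 431 in telogen. The sum of 8 infundibulum and sebaceous gland markers was 11342 to 14370 in anagen against 2978 to 5906 in telogen. In anagen most of it was Krt17, at 7751 to 10140 against 1247 to 1877, while Awat2 and Mgst1 of the same list were lower in every anagen library. The sum of hair germ and matrix markers, 7 of 8 in the table, was 2748 to 2877 against 1381 to 2359. In anagen most of it was Cdh3, at 2198 to 2267 against 525 to 1532, while Msx2 was lower in every anagen library, at 104 to 151 against 315 to 469, and Lef1 and Shh overlapped. These sums, though not each marker in them, had the direction of Hes1 and Hey1. Endothelial markers summed to 150 to 182 in anagen and 87 to 163 in telogen. Among them Tek was at 62 to 74.7 in anagen and 5.12 to 17.6 in telogen, without overlap, while Pecam1 and Kdr overlapped and Cdh5 and Cldn5 were listed at 0 in every library. The part of these markers in the values of Hes1 and Hey1 was not tested.

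Beside the 10 genes, 51 other genes of the pathway were read by role, from other receptors and ligands to feedback genes. Of these, 49 were in the Eed iKO table and 44 passed the filter, and all 51 were in the hair cycle table and 41 passed the filter. The genes left out by the filter had low values. They included Dll4, with at most 2 reads in any control or Eed iKO library and a highest value of 4.15 normalized counts in the hair cycle table, and Hes5, with 2 reads in Eed iKO replicate 3 and 0 in every other library of its table.

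In the Eed iKO comparison 0 of the 44 other genes passed the test by limma or edgeR, and 3 did by DESeq2 on recovered reads, all lower in Eed iKO. Over all genes the shares were 0.0267% by limma, 0.0333% by edgeR and 4.48% by DESeq2. The 3 were Ncstn, a subunit of gamma-secretase (DESeq2 adjusted p = 0.0412), the coactivator Maml2 (0.0334) and Neurl1b, a ubiquitin ligase that acts on ligands (0.0292). Ncstn was at 3092, 2940 and 3508 normalized counts in Eed iKO and at 3923, 4733 and 5658 in control. Maml2 was at 4036, 4400 and 3613 against 5452, 5653 and 5929, and Neurl1b at 2237, 2296 and 2184 against 2456, 4520 and 4554. The groups did not overlap for any of the 3, and by limma their adjusted p was 0.156, 0.141 and 0.177.

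An unadjusted p under 0.05 was found for 10 of the 44 genes, against 14.7% of all genes. The 3 higher in Eed iKO were Egfl7, a secreted protein that binds Notch, the fringe glycosyltransferase Rfng and the coregulator Snw1. The 7 lower were the 3 above with Poglut1, Furin, Dtx3 and Numbl. Groups without overlap were found for 7 of the 44, 1 above and 6 below, against 20.2% of all genes in either direction. The median log2 difference of the 44 was -0.098, with 15 genes above 0 and 29 below, against -0.001 over all genes. Egfl7 had few reads, with 24.7, 33.2 and 10.9 normalized counts in Eed iKO and 0, 1.08 and 14.5 in control, and its groups overlapped. Of the exon bases of Snw1, 44.2% lie on Slirp, a gene of the other strand. Without strand information the reads of these bases cannot be told apart. The log2 difference of Dtx3, a Deltex-family ubiquitin ligase, was -0.99 (adjusted p = 0.212), and it had an adjusted p of 0.0432 without Eed iKO replicate 3.

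**Figure D5:**
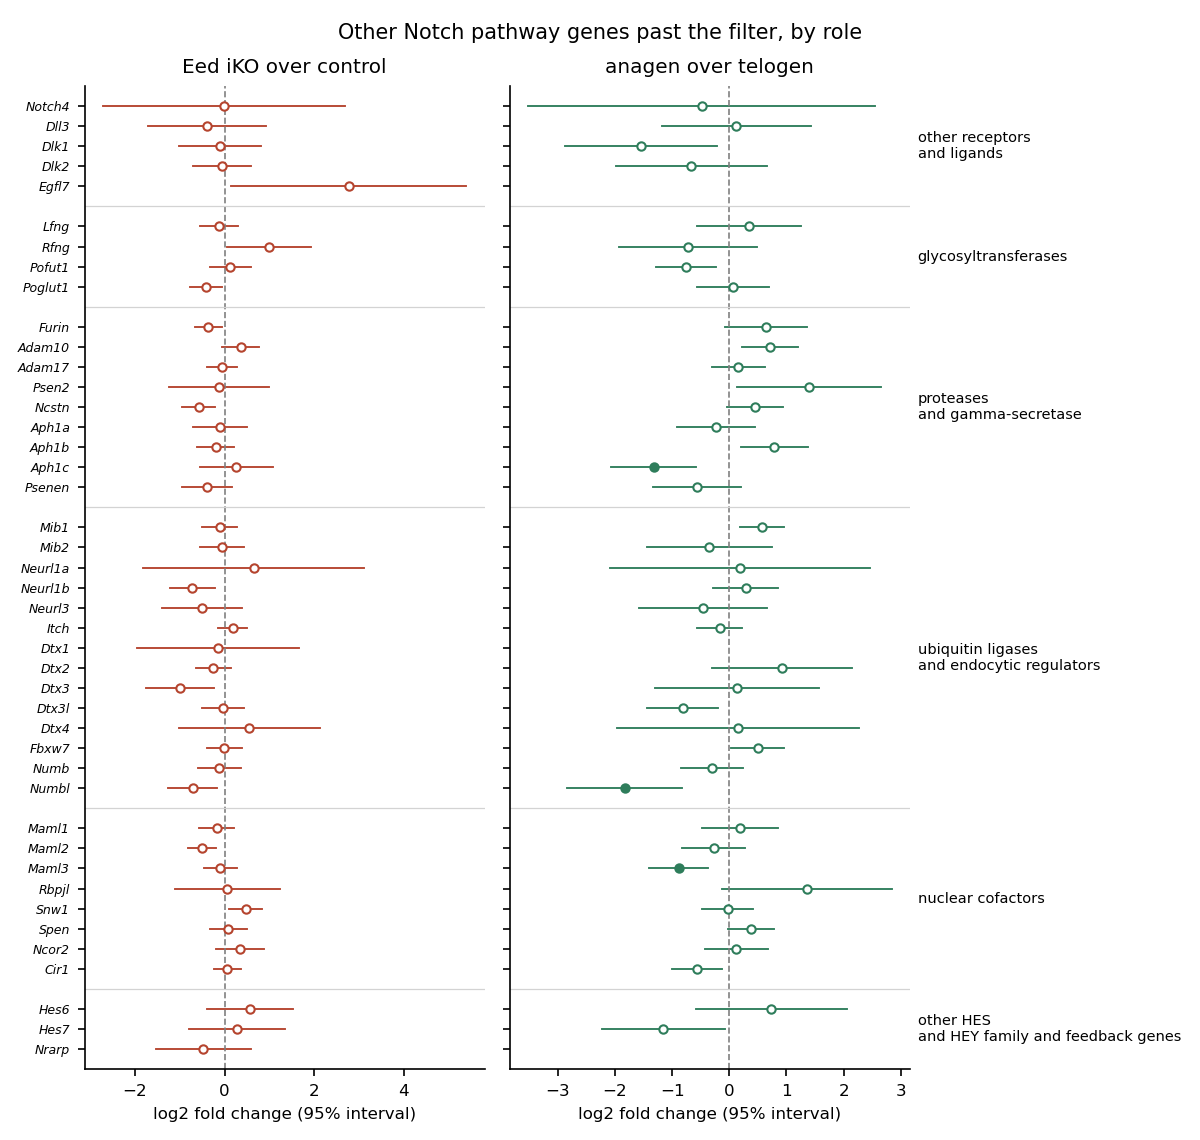
Log2 fold changes (x axes) with 95% intervals of the other pathway genes past the filter, 44 for Eed iKO over control (left) and 41 for anagen over telogen (right), in rows by role, with 1 gene not drawn. Filled points have an adjusted p under 0.05 by limma, none on the left and Aph1c, Numbl and Maml3 on the right.

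Between the stages 3 of the 41 other genes passed the test, all lower in anagen, where 11.6% of all genes were called in either direction and 4.35% were called lower. Numbl, a relative of the Notch inhibitor Numb, was at 95.4, 109 and 76.7 normalized counts in anagen and at 211, 724 and 238 in telogen, and fell by 1.83 ± 0.459 (SE) on the log2 scale (adjusted p = 0.0277). Maml3, a Mastermind-like coactivator that joins Rbpj, was at 422, 541 and 376 in anagen and at 727, 881 and 848 in telogen, and fell by 0.89 ± 0.235 (adjusted p = 0.0344). Aph1c, a subunit of gamma-secretase, was at 81.1, 101 and 107 in anagen and at 189, 298 and 247 in telogen, and fell by 1.32 ± 0.34 (adjusted p = 0.0305). None of the 3 had overlapping groups, but each call was lost when any 1 of the 3 anagen libraries was left out and without telogen replicate 2, where the adjusted p was 0.0539 to 0.0697, and those of Maml3 and Aph1c were also lost without telogen replicate 3.

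Aph1c and its close copy Aph1b had opposite directions. Aph1b was at 567, 538 and 454 in anagen and at 340, 229 and 342 in telogen, a log2 difference of 0.79 ± 0.267 (adjusted p = 0.0813). The copies share 24.6% of the 31-base words of Aph1c transcripts, so the split of reads between them is uncertain. Their summed values were 648, 639 and 561 in anagen and 530, 527 and 589 in telogen, which overlap.

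An unadjusted p under 0.05 was found for 14 of the 41 genes, 6 above and 8 below in anagen, against 27.3% of all genes in either direction. Those above included Adam10 (log2 difference 0.72), Psen2 (1.40), Mib1 (0.57), the ubiquitin ligase Fbxw7 (0.50) and Aph1b, each with an adjusted p over the threshold. Adam10, the protease that cuts receptors after ligand binding, was at 1014, 1105 and 896 in anagen and at 552, 744 and 547 in telogen, without overlap (adjusted p = 0.0611). Mib1, a ubiquitin ligase needed for ligand activity, was at 5331, 4975 and 4240 in anagen and at 3125, 3451 and 3168 in telogen (adjusted p = 0.0565). Those below included Dlk1, Pofut1, Dtx3l, Cir1 and Hes7 beside the 3 genes that passed. Groups without overlap were found for 18 of the 41, 8 above and 10 below, against 33.3% of all genes in either direction, and the median log2 difference was 0.124 against 0.0127 over all genes.

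In the GRCm38 assembly (GENCODE vM21), Notch1 lies on chromosome 2 from 26457903 to 26516663, Jag1 on the same chromosome from 137081456 to 137116644, and Notch2 on chromosome 3 from 98013527 to 98150361. Notch3 and Dll1 are both on chromosome 17, from 32120820 to 32166852 and from 15367354 to 15376872. Jag2 lies on chromosome 12 from 112907819 to 112929776 and Rbpj on chromosome 5 from 53466152 to 53657362. Hes1 is on chromosome 16 from 30064384 to 30067796, Hey1 on chromosome 3 from 8663359 to 8667256 and Heyl on chromosome 4 from 123233556 to 123249875. The values are totals over the transcripts of each gene. No 31-base word of Jag1, Hes1, Hey1 or Heyl was shared with another gene, while the shares were 9.4% for Notch1, 4.28% for Notch2 and 6.59% for Notch3.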

How the data were processed

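RNA of sorted HFSCs was amplified with the Ovation RNA-seq System V2 and sequenced in 150-base pairs. By the methods and labels, reads were pseudoaligned with kallisto 0.42.5 to Gencode vM20 transcripts (mm10) and the groups compared with DESeq2. The deposited signal is here called the normalized count. In the Eed iKO table it is each gene's count after division by a single DESeq2 size factor per library. No such single factor was recovered from the hair cycle table, so how its values were scaled is not known. The deposited fold changes and p-values, telogen over anagen in the hair cycle table, were not used.

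In the Eed iKO table, 100% of the values in every library were whole multiples of a single step, which gave back the reads, 33269583 to 57063586 per library. In the hair cycle table at most 1.38% were, so that its depth is not known. Normalized counts summed to 39166197 to 44182116 and to 11370984 to 13186648 per library.

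Groups were taken from the sample labels. Each table was fitted on its own with limma 3.58.1 (R 4.3.3) and an intensity trend on log2(normalized count + 1), after filterByExpr at a count minimum of 10, with Benjamini-Hochberg adjustment over the 15008 and 13457 genes left and a threshold of 0.05. Intervals are 95% intervals of the fit. Genes named were the 10 members, the other pathway genes that passed the test or stood in a count of 5 or fewer, and others named after their values were seen (among them Dll4, Hes5, Adam10, Psen2, Mib1 and the genes of larger counts). The members and lists were chosen with earlier results of these data known. Values of 1 other pathway gene are not reported here, though counts over the list include it. Identifiers of 17879 of 17885 and of all 21915 genes matched GENCODE vM21. Alternatives were a pseudocount of 0.1, no filter, TMM scaling, no trend, a replicate block, each library left out, the thresholds of the methods (a log2 fold change over 1.5 for Eed iKO or over 2 for the hair cycle, with an unadjusted p under 0.05), DESeq2 1.42.0 and edgeR 4.0.16 on recovered reads, and, for levels per kilobase, the median transcript length. The tests were checked on simulated data.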

Additional observations from a re-analysis of the deposited data

How the results depend on the processing

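For the 9 genes tested, 203 log2 differences under an alternative kept their direction and their side of the threshold, 8 turned their direction and 5 passed a threshold they had not passed. Heyl was tested only without the filter, with log2 differences of 1.29 for Eed iKO over control (adjusted p = 0.636) and 1.97 for anagen over telogen (adjusted p = 0.324). In the Eed iKO comparison 0 of the 9 genes tested were called under each alternative run, and Heyl was not called without the filter. Jag1 turned to -0.035 without control replicate 1 and to -0.017 without Eed iKO replicate 2, and reached 0.12 without control replicate 3. Between anagen and telogen, Notch2 turned to 0.030 and 0.018 without anagen replicates 1 and 3, and to 0.12 and 0.063 without telogen replicates 2 and 3, and was -0.31 without telogen replicate 1. Without telogen replicate 1, Jag2 turned to -0.30 and Rbpj to 0.015, and with each library left out in turn they ran up to 0.40 and down to -0.58. The number of the 10 genes called between the stages was 0 with all libraries, 0 to 2 with each library left out, and 1 (Hey1) by the thresholds of the methods.

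Whether same replicate numbers marked pairs was not settled in either table, since correlations of so few libraries cannot decide it. The main fits compared the groups without pairing. The correlation of deviations of same-numbered libraries was 0.039 to 0.193 in the Eed iKO table, where 2 of 3 Eed iKO libraries were closest to their own number, and -0.0711 to -0.0294 in the hair cycle table, where 0 of 3 anagen libraries were. With the replicate block, 1 of the 10 genes was called between the stages (Hey1, adjusted p = 0.0386), as was 1 of the other pathway genes in each comparison (Dtx3 for Eed iKO, adjusted p = 0.0106, and Numbl for the stages, adjusted p = 0.0165). The block raised the count over all genes from 4 to 424 in the Eed iKO comparison, and gave 1224 against 1556 between the stages.

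Over all genes, the Eed iKO comparison called 2 genes without the trend, 673 by DESeq2, 5 by edgeR, 263 by the thresholds of the methods, and 1 to 203 with each library left out, the highest without Eed iKO replicate 3. For the other pathway genes the counts were 0 with all libraries, 0 to 1 with each library left out, 3 by DESeq2 and 1 (Egfl7) by the thresholds of the methods. Between the stages, 842 of all genes were called without the trend, 686 by the thresholds of the methods, and 597 to 1529 with each library left out. Of the other pathway genes 3 were called with all libraries, 0 to 4 with each library left out, 1 (Aph1c) without the trend and 0 by the thresholds of the methods. The cause of these changes was not tested. With no depth known for the anagen and telogen libraries, no limit from counting could be set there.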
